A study of Homo sapiens with 6 samples.

Results

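The genes of DNA replication origins and forks were examined as a set of 51 genes listed by symbol from the known parts of the replication machinery, and the rule uses no measured value. All 51 were found among 60609 annotated genes, of which 34998 had a count and 19114 were tested, and all 51 passed the filter on low counts, a normalized mean of at least 5. Stranded poly(A) RNA-seq of K562 cells, an established human leukaemia line, gave 6 libraries, 3 per group. In both groups the endogenous EP400 gene, which encodes the ATPase and scaffold of the TIP60 chromatin complex, carried a dTAG degradation tag on both alleles. Both groups were given 500 nM dTAGV-1, the compound that removes the tagged protein, for 24 h before RNA extraction. They differed in the exogenous EP400 expressed from the AAVS1 locus, which was either WT EP400 or Delta-TRRAP EP400, a form that lacks the SANT and HD domains to which the TRRAP module attaches. The comparison asks how transcript levels differ when TRRAP cannot join the complex. Each complemented line was 1 clone derived from 1 tagged clone, so genotype and clone cannot be told apart. The methods of the study call the replicates biological without saying whether they were separate cultures, and the p-values measure the spread between these libraries only.

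Replication begins at origins bound by the origin recognition complex (ORC), where CDC6 and CDT1 load the MCM2-7 helicase onto DNA in G1. At the start of S phase CDC7 and its partner DBF4 phosphorylate the loaded helicase, and CDC45 and the GINS complex join it to form the moving fork. DNA polymerase alpha with primase then makes primers, polymerases epsilon and delta extend them, PCNA keeps the polymerases on the template, and FEN1 and LIG1 join the lagging-strand fragments. Many of these genes are known E2F targets that are transcribed most around the G1 to S transition, and dividing leukaemia cells such as K562 express them strongly.

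Libraries held 35076835 to 42616061 counts in genes. The mitochondrial share was 3.18% to 3.71% for WT and 5.07% to 6.24% for Delta-TRRAP. EP400 itself, counted over the tagged locus and the transgene together, was at 0.14 ± 0.11 in log2 units (SE, edgeR adjusted p 0.272). Its normalized counts were 4897, 4897 and 5377 in WT and 5533, 6833 and 4357 in Delta-TRRAP, which spread on both sides of WT. The labels call the cell type lymphoblast. Of 10 lymphoid markers, 4 had a mean normalized count of at least 5, with a summed level of 509 to 522 in WT against 455 to 487 in Delta-TRRAP, and MS4A1 was at 0 in every library. All 10 erythroid and megakaryocytic markers of K562 were present, with sums of 39475 to 42494 and 45329 to 48407. Single markers moved both ways within these sums, from -2.89 ± 0.10 for ITGA2B to 0.75 ± 0.049 for TAL1 in log2 units (SE). Fibroblast markers summed to 35.5 to 57 in WT against 909.7 to 973 in Delta-TRRAP, with PDGFRA and LUM at 0. COL1A2 made almost all of the Delta-TRRAP sums, averaging 876 there against 1.62 in WT, where COL1A1 averaged 28.7. Epithelial markers summed to 23732 to 24438 and 25072 to 26815, with KRT5 at 0. They too moved both ways, from -1.54 ± 0.057 for EPCAM to 0.87 ± 0.051 for KRT19 in log2 units (SE). The part of these differences in the results for replication genes was not tested.

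Replication genes were lower in Delta-TRRAP by modest amounts. By the quasi-likelihood test of edgeR, with Benjamini-Hochberg adjustment over all tested genes and a threshold of 0.01, 32 of 51 (62.7%) fell, 3 rose (POLA2, RFC1 and TK1) and 16 did not pass. Over all 19114 tested genes 27.6% were lower and 30.7% higher at the same threshold. The median log2 fold change of the 51 genes was -0.25, with a range of -0.79 to 0.50, against 0.03 over all tested genes. No member reached a fold change of 2, which 22.6% of all tested genes, of any level, did in either direction at the adjusted p. The count at a fold change of 2 was also 0 with DESeq2 and limma-voom and at an unadjusted p under 0.05, whereas 40 members had an unadjusted p under 0.05 without the fold threshold by edgeR, 42 by DESeq2 and 40 by limma-voom. Counts that did not overlap between the groups were seen for 43 members, 38 of them lower and 5 higher, and the shares over all tested genes were 33.7% lower and 37.4% higher. In bulk RNA, fewer cells in S phase and less of each transcript per cell cannot be told apart. Among 16 genes of G2 and mitosis, 12 were also lower and 0 higher, with a median of -0.41.

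Most of these genes are abundant, and abundant genes tended to be lower in general. Of the 51 genes, 49 averaged 1000 or more normalized counts, and 32 of those 49 (65.3%) fell while 2 rose, with a median of -0.28. Among all 6804 tested genes at that level 45.9% were lower and 22.1% higher, and their median log2 fold change was -0.14. Fold changes also spread less at high levels. The 10th to 90th percentile of log2 fold change was -0.93 to 3.23 for genes averaging 5 to 10 normalized counts. It was -0.71 to 0.51 at 1000 to 3000 and -0.71 to 0.37 at 3000 to 10000. The 22.6% of all tested genes at a fold change of 2 was thus not matched for level. The summed counts of the 51 genes made up 0.776% to 0.794% of each WT library and 0.699% to 0.71% of each Delta-TRRAP library. With mitochondrial counts left out of the total the shares were 0.806% to 0.82% and 0.738% to 0.751%.

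**Figure D1:**
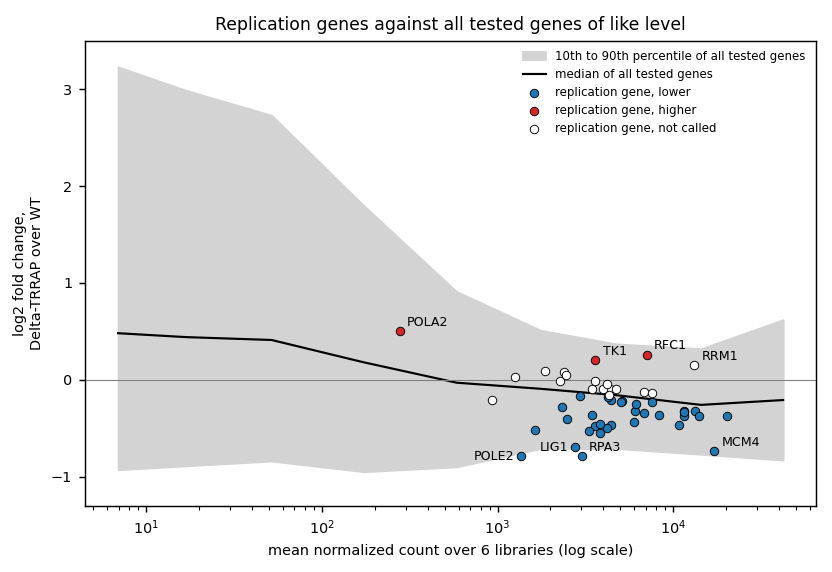
Log2 fold change (Delta-TRRAP over WT, vertical axis) against the mean normalized count over 6 libraries (horizontal axis, log scale) for the 51 replication genes, drawn as blue (lower), red (higher) or open (not called) points. The line is the median and the band the 10th to 90th percentile of all tested genes in bins of level, and most replication genes lie under the line, while POLE2 and RPA3, both at -0.79, lie under the band.

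The scaling of the libraries decided the smaller differences. TMM scaling put the median of all tested genes at 0.03, upper quartile scaling at 0.13 and library size alone at 0.17, and the median of the replication genes moved with it from -0.25 to -0.15 and -0.12. A change of scaling shifts the log2 fold changes of all genes by nearly the same amount. The distance of the replication genes from the median of all tested genes was therefore bound to stay, at -0.28, -0.28 and -0.29. It cannot tell which scaling is right. Filters moved that distance, to -0.18 with a minimum mean of 50 normalized counts and to -0.39 with no filter. With library size alone, 24 replication genes were lower and 7 higher, so 77.4% of the calls were falls instead of 91.4%, and 21.2% of all tested genes were lower and 37.7% higher. With upper quartile scaling 25 were lower and 5 higher, which is 83.3% of calls. Over 14 alternatives of scaling, tool, filter, block and left-out library, 24 of the 32 genes stayed lower, and these had log2 fold changes of -0.79 to -0.32 with a median of -0.45. The other 8 were ORC2, ORC3, GMNN, MCM5, MCM10, PRIM2, RFC2 and RPA2, at -0.28 to -0.17, and each lost its call in at least 1 alternative. A minimum mean of 50 normalized counts in place of 5, which also changed the scaling, ended the calls of all of these but PRIM2 and RPA2. Of the 3 rises, POLA2 passed in all 14.

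**Figure D2:**
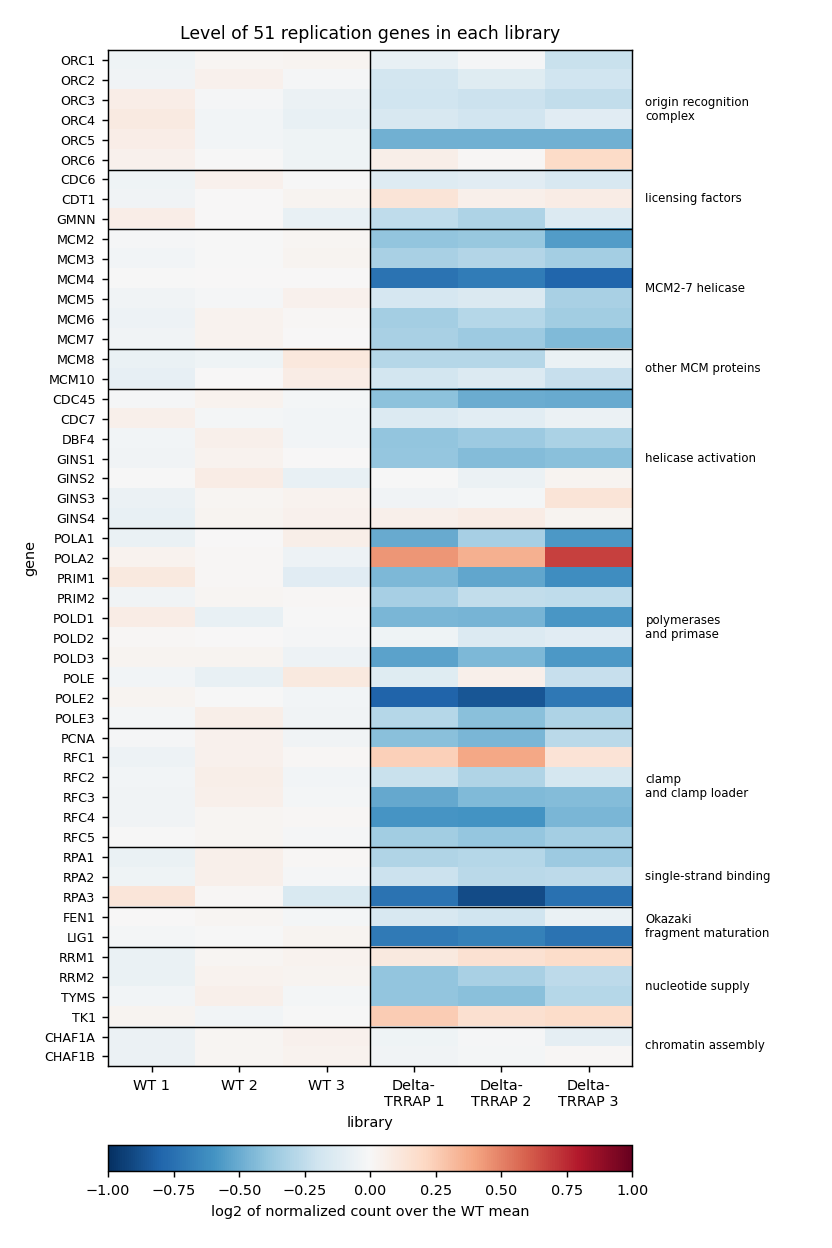
Level of each of the 51 replication genes (rows of the map, grouped by role) in each of the 6 libraries (columns), as the log2 of the normalized count over the WT mean. The 3 WT columns are pale, and the 3 Delta-TRRAP columns are blue for most genes, darkest for MCM4, POLE2, RPA3 and LIG1, and red for POLA2, RFC1 and TK1.

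Promoter letters were compared as a property that the choice of genes did not use. RefSeq windows from 250 bases before to 50 after the start site (build GRCh38.p14) were matched for 45 of the 51 genes, in 59 windows. The E2F-type words TTTCGCGC, TTTGGCGC, TTTCCCGC and TTTGCCGC, searched on both strands and allowed to overlap, were held by 21 of the 59 windows (35.6%), against 4.79% of 16265 windows of tested genes and 3.31% of all 35116 windows. CCAAT was held by 52.5% of the windows of replication genes and 34.6% of those of tested genes, the GC box GGGCGG by 74.6% and 63.6%, and the E-box CACGTG by 15.3% and 9.13%. The words TTTGAA and TTCGAA, the core of the cell cycle homology region known from G2 and mitosis genes, were less common, at 6.78% against 12.2%. In 77 windows of further genes of the replication pathway, read below, the shares were 18.2% for E2F-type words, 54.5% for CCAAT and 75.3% for the GC box. There the E-box was held by 11.7% and the words TTTGAA and TTCGAA by 10.4%. The next lines show stretches before the start site of 8 genes, 5′ to 3′ on the strand of the gene with E2F-type words of either strand in capitals. They are the helicase and clamp genes MCM6, MCM7, MCM3 and PCNA, the falling ligase and clamp loader genes LIG1 and RFC3, and 2 genes that rose, POLA2 with a match and RFC1 without.
MCM6: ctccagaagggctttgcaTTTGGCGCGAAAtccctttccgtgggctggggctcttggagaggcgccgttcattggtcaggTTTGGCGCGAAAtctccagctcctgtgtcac
MCM7: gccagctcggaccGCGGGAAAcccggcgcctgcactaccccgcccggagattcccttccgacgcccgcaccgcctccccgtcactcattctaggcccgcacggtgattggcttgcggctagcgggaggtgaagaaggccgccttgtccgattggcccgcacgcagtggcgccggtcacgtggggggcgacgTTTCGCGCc
MCM3: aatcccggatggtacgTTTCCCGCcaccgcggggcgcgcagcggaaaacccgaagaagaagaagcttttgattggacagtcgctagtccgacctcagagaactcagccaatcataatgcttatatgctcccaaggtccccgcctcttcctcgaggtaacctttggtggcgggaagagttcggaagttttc
PCNA: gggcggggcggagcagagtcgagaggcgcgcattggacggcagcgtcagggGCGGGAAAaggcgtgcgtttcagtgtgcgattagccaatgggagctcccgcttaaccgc
LIG1: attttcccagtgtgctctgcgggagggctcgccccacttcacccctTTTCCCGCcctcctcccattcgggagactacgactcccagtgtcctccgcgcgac
RFC3: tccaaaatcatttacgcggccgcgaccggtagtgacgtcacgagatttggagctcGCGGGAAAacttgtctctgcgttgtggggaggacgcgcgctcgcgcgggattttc
POLA2: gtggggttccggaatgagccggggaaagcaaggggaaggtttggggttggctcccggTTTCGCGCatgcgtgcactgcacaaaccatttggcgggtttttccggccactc
RFC1: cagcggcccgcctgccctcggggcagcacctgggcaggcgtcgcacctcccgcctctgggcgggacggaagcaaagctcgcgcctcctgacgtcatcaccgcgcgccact

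The windows lie at chr2:135876503-135876613 (MCM6, minus strand), chr7:100101398-100101597 (MCM7, minus strand), chr6:52284743-52284932 (MCM3, minus strand), chr20:5126623-5126732 (PCNA, minus strand), chr19:48170404-48170504 (LIG1, minus strand), chr13:33818039-33818148 (RFC3, plus strand), chr11:65261852-65261961 (POLA2, plus strand), chr4:39366363-39366472 (RFC1, minus strand). MCM6 held 4 overlapping matches in 2 places, MCM7 held 2, the next 5 genes held 1 each and RFC1 held 0. The 21 genes with an E2F-type match split into 13 lower, 1 higher and 7 not called, with a median log2 fold change of -0.32 (-0.79 to 0.50). The 24 matched genes without one split into 14, 2 and 8, with a median of -0.21 (-0.55 to 0.26). A match says only that the letters are present, and both sets held falls and rises. RPA2, RPA3, POLD3, GINS4, MCM4 and MCM5 were not matched to a window.

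**Figure D3:**
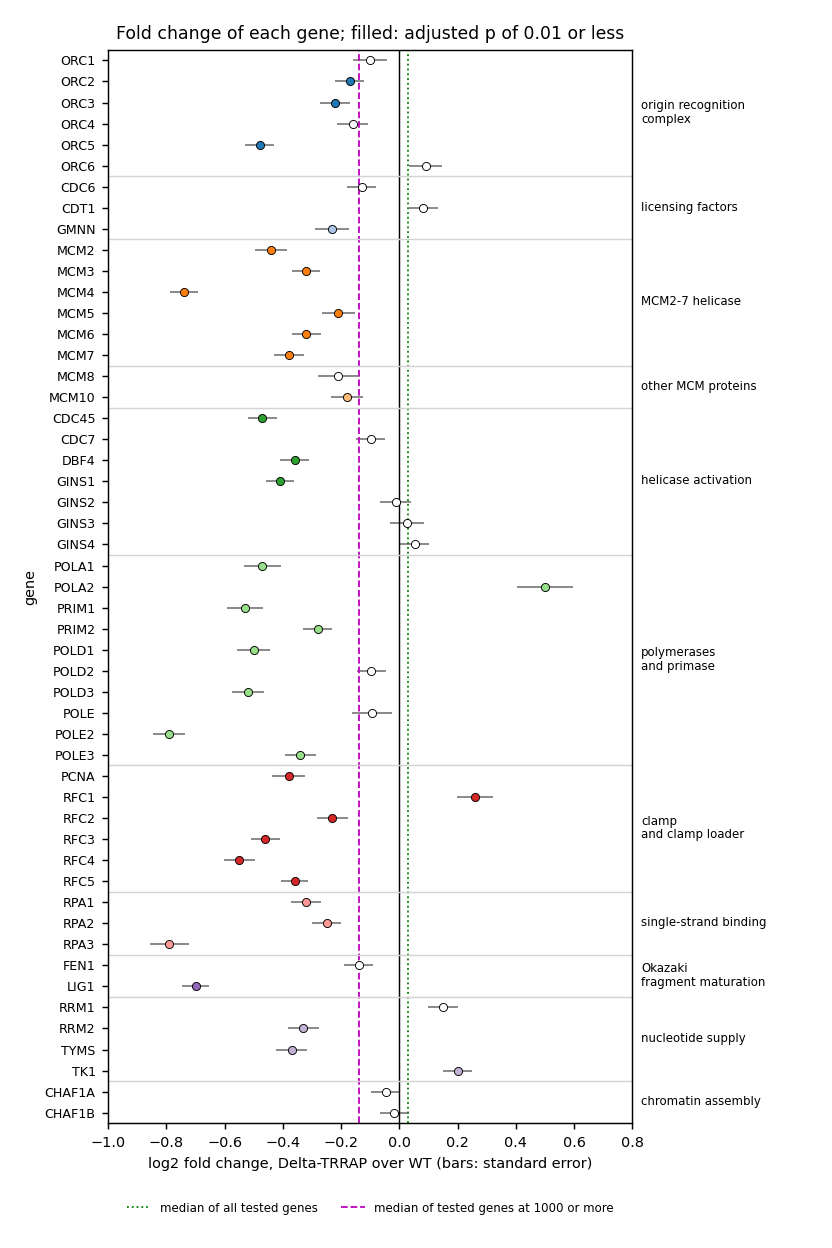
Log2 fold change of each replication gene (Delta-TRRAP over WT, horizontal axis; bars are standard errors) with the genes grouped by role. Filled points passed an adjusted p of 0.01 and open points did not. The dotted line is the median of all tested genes at 0.03 and the dashed line that of tested genes averaging 1000 or more, at -0.14.

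Positions of genes are given on GRCh38 from GENCODE 44. The origin recognition complex, which marks origins and starts loading, was lower in 3 of its 6 genes and had a median log2 fold change of -0.16. That is near the values of all tested genes averaging 1000 or more normalized counts, of which 45.9% were lower, with a median of -0.14. ORC5 (chromosome 7, 104126341 to 104208047) had normalized counts of 4381, 4097 and 4047 in the WT libraries and 2996, 2995 and 2999 in the Delta-TRRAP libraries. All 3 Delta-TRRAP libraries were nearly equal and lay far below the WT libraries. ORC5 fell by 0.48 ± 0.05 in log2 units (SE, edgeR adjusted p 5.65e-07). ORC5 is a core subunit of the complex. ORC6 (chromosome 16, 46689643 to 46698394) measured 1866, 1804 and 1751 normalized counts in WT and 1886, 1825 and 2061 in Delta-TRRAP. Delta-TRRAP replicate 3 was the highest library, and replicate 2 lay among the WT libraries. ORC6 did not pass, at 0.09 ± 0.057 in log2 units (SE, edgeR adjusted p 0.175). ORC6 is the smallest and least tightly bound subunit, and library size scaling put it higher, at 0.22 (adjusted p 0.00293). ORC2 and ORC3, which form the core with ORC5, fell by 0.17 and 0.22 on the log2 scale. ORC1, the ATPase that comes and goes with the cell cycle, differed by -0.10 ± 0.058 with overlapping groups, and ORC4 by -0.16 ± 0.054 with an edgeR adjusted p of 0.0187 and no overlap. Relative to the mean of the other ORC genes per kilobase of exon, ORC5 stood at 1.29 to 1.37 in WT against 1.02 to 1.06 in Delta-TRRAP libraries.

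Licensing factors differed among themselves. GMNN (chromosome 6, 24774931 to 24786099) counted 8590.3, 8207 and 7764 in WT and 6862, 6603 and 7455 in Delta-TRRAP after normalization. The highest Delta-TRRAP library lay under the lowest WT library by a small margin. GMNN fell by 0.23 ± 0.058 in log2 units (SE, edgeR adjusted p 0.00242). GMNN encodes geminin, the inhibitor that binds CDT1 and blocks further loading. Its adjusted p was 0.0767 and 0.148 under upper quartile and library size scaling, and 0.0106 to 0.0159 without WT replicate 1, WT replicate 2 or Delta-TRRAP replicate 1. CDT1 (chromosome 16, 88803789 to 88809258) had normalized counts of 2249, 2321 and 2357 in the WT libraries and 2519, 2388 and 2425 in the Delta-TRRAP libraries. Here every Delta-TRRAP library lay above every WT library, by a margin smaller than the spread within Delta-TRRAP. CDT1 did not pass, at 0.082 ± 0.05 in log2 units (SE, edgeR adjusted p 0.156). CDT1 brings MCM2-7 to origins, and it was called higher with upper quartile scaling (0.18, adjusted p 0.00433), library size scaling (0.21, adjusted p 0.00142) and a minimum mean of 50 normalized counts (0.15, adjusted p 0.00986). CDC6, the ATPase that works with ORC in loading, had 6938 to 7384 normalized counts in WT against 6390.0 to 6626 in Delta-TRRAP, at -0.13 ± 0.049 with an edgeR adjusted p of 0.0243. Levels per kilobase put GMNN at 3.67 to 4.26 times CDT1 in WT libraries and at 3.04 to 3.43 times in Delta-TRRAP libraries.

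The MCM2-7 genes encode the 6 subunits of the ring helicase, and all 6 fell, with a median log2 fold change of -0.35. Of all tested genes averaging 1000 or more normalized counts, 45.9% were lower, with a median of -0.14. MCM5 was the exception under other scalings, at -0.11 with an adjusted p of 0.0764 for upper quartile and -0.077 with 0.23 for library size, and without WT replicate 3 its adjusted p was 0.0177. MCM4 (chromosome 8, 47960185 to 47978160) measured 21251, 21391 and 21457 normalized counts in WT and 12776, 13168 and 12308 in Delta-TRRAP. The groups were far apart, and the WT libraries were nearly equal. MCM4 fell by 0.74 ± 0.049 in log2 units (SE, edgeR adjusted p 3.02e-09). Its level fell by 40.3%, the most among the helicase genes. MCM5 (chromosome 22, 35400134 to 35425431) counted 4664, 4729 and 4913 in WT and 4236, 4324 and 3809 in Delta-TRRAP after normalization. MCM5 libraries of Delta-TRRAP lay lower without overlap, replicate 3 most of all. For MCM5 the log2 fold change and its SE came to -0.21 ± 0.056 at an edgeR adjusted p of 0.00383. MCM2, at 6777 to 6924 in WT against 4647 to 5267 in Delta-TRRAP, fell by 0.44. MCM7 fell by 0.38, from 22149 to 23177 in WT libraries down to 16652 to 18119. MCM3 and MCM6 both fell by 0.32. Since the 6 proteins form the ring in equal number, their transcripts were set against each other within each library per kilobase of exon. MCM4 stood at 0.781 to 0.805 times the mean of the other 5 in WT against 0.593 to 0.606 in Delta-TRRAP. MCM5 went the other way, from 0.211 to 0.22 in WT to 0.235 to 0.253 in Delta-TRRAP. The per-kilobase order of the WT means was MCM7 (4571 ± 104), MCM6 (3545 ± 109), MCM3, MCM4, MCM2 and MCM5 (656 ± 17.8), with MCM6 and MCM3 closer than their spread, and the order was the same in Delta-TRRAP. This order depends on exon length, for which all annotated exons of a gene were merged. The length was 9852 bases for MCM4 and 7268 for MCM5, against 3645 (MCM3) to 4960 (MCM7) for the others.

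Of the other MCM proteins, MCM10 is a fork factor that links the helicase to polymerase alpha, and MCM8 works in repair of broken forks. MCM10 (chromosome 10, 13161558 to 13211110) had normalized counts of 4297, 4557 and 4782 in the WT libraries and 3996, 4134 and 3872 in the Delta-TRRAP libraries. Delta-TRRAP libraries were lower by a narrow margin. MCM10 fell by 0.18 ± 0.054 in log2 units (SE, edgeR adjusted p 0.00689). This call was lost with upper quartile and library size scaling (adjusted p 0.162 and 0.405) and when any library other than WT replicate 1 or Delta-TRRAP replicate 2 was left out. MCM8 (chromosome 20, 5950652 to 5998977) measured 951, 965 and 1074 normalized counts in WT and 819, 819.9 and 951 in Delta-TRRAP. The highest Delta-TRRAP library and the lowest WT library both rounded to 951, so MCM8 stands among the 38 genes without overlap by less than 1 normalized count. MCM8 did not pass, at -0.21 ± 0.071 in log2 units (SE, edgeR adjusted p 0.0171). In GENCODE 44 exons of another gene on the same strand cover 33.5% of its main transcript.

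Helicase activation split between genes that fell, 3 of 7 (42.9%), and 4 that did not pass, with a median log2 fold change of -0.099. That is near the 45.9% lower and the median of -0.14 among all tested genes averaging 1000 or more normalized counts. CDC45 (chromosome 22, 19479457 to 19520612) counted 12470.1, 12851 and 12370.1 in WT and 9454, 8915 and 8849 in Delta-TRRAP after normalization. Every Delta-TRRAP library was well below the WT libraries. CDC45 fell by 0.47 ± 0.05 in log2 units (SE, edgeR adjusted p 6.84e-07). CDC45 is the factor that, with GINS, turns the loaded ring into the active helicase. DBF4, which activates the CDC7 kinase, fell by 0.36, from 9083 to 9618 in WT libraries down to 7063 to 7448. CDC7 itself had 3489 to 3680.1 in WT against 3233 to 3427 in Delta-TRRAP, at -0.099 ± 0.05 with an edgeR adjusted p of 0.0898.

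The 4 GINS genes encode a complex with 1 copy of each subunit. GINS1 had 2772, 2910.4 and 2849.9 in WT and 2172, 2104 and 2130.3 in Delta-TRRAP, and fell by 0.41. GINS2 (chromosome 16, 85676198 to 85690073) had normalized counts of 2273, 2397 and 2169 in the WT libraries and 2270.1, 2189 and 2319 in the Delta-TRRAP libraries. These values were interleaved. GINS2 did not pass, at -0.013 ± 0.053 in log2 units (SE, edgeR adjusted p 0.834). GINS3 and GINS4 differed by 0.027 ± 0.059 and 0.052 ± 0.051 with overlapping groups. Within each library GINS1 stood at 0.756 to 0.774 times the mean of the other 3 per kilobase in WT against 0.555 to 0.581 in Delta-TRRAP.

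Among the 10 genes of the replicative polymerases and primase, 7 fell, POLA2 rose, and POLD2 and POLE did not pass, with a median log2 fold change of -0.40. Tested genes averaging 1000 or more normalized counts were lower in 45.9% and higher in 22.1% of cases, with a median of -0.14. POLE2 (chromosome 14, 49643555 to 49688422) measured 1753, 1716 and 1689 normalized counts in WT and 987, 949.5 and 1047 in Delta-TRRAP. The Delta-TRRAP libraries lay far below the WT libraries, with a narrow spread in both groups. POLE2 fell by 0.79 ± 0.055 in log2 units (SE, edgeR adjusted p 5.22e-09). POLE2 is a non-catalytic subunit of the leading-strand polymerase, and its level fell by 42.2%, which with RPA3 was the most in the set. POLE (chromosome 12, 132623753 to 132687376) counted 4041, 3923 and 4411 in WT and 3795, 4279 and 3516 in Delta-TRRAP after normalization. POLE, its catalytic subunit, overlapped between groups. POLE did not pass, at -0.094 ± 0.069 in log2 units (SE, edgeR adjusted p 0.238). Per kilobase, POLE2 stood at 1.61 to 1.84 times POLE in WT against 0.933 to 1.25 times in Delta-TRRAP. POLE3, a histone-fold subunit of the same enzyme, fell by 0.34.

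Polymerase delta extends the lagging strand. Its catalytic gene POLD1 fell by 0.50, from 4674 to 5202 in WT libraries down to 3299 to 3595, and the accessory gene POLD3 by 0.52, from 1857 to 1963 down to 1292 to 1411. The POLD2 subunit, which holds the others together, had 4792 to 4871 in WT against 4414 to 4704 in Delta-TRRAP, at -0.096 ± 0.049 with an edgeR adjusted p of 0.0952. Of the POLD1 main transcript, 12.4% lies in exons of another gene on the same strand.

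Polymerase alpha and primase lay down the primers. Its catalytic subunit POLA1 fell by 0.47, from 4935 to 5365 down to 3460.0 to 4101, and the primase genes PRIM1 and PRIM2 fell by 0.53 and 0.28. POLA2 (chromosome 11, 65261913 to 65305959) had normalized counts of 236, 232 and 222 in the WT libraries and 312, 294 and 370.2 in the Delta-TRRAP libraries. All Delta-TRRAP libraries were higher, replicate 3 most of all. POLA2 rose by 0.50 ± 0.096 in log2 units (SE, edgeR adjusted p 0.00029). POLA2, the regulatory subunit, had the lowest counts of the 51 genes. In GENCODE 44, 55.8% of its main transcript lies in exons that a readthrough gene on the same strand shares, and of the PRIM1 main transcript 28.9% is shared. The authors counted on GENCODE 32 in union mode, which drops reads in exons that release shares between genes, so the POLA2 value is uncertain as a measure of its mRNA.

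The clamp PCNA and 4 of the 5 subunits of its loader, replication factor C, fell, and the fifth rose. Their median was -0.37, against -0.14 for tested genes averaging 1000 or more normalized counts, of which 45.9% were lower and 22.1% higher. PCNA had 12904, 13388 and 12687 in WT and 9719.9, 9486 and 10767 in Delta-TRRAP and fell by 0.38. RFC4 (chromosome 3, 186789880 to 186807058) measured 4424, 4599.7 and 4565 normalized counts in WT and 3011, 2986 and 3302 in Delta-TRRAP. The gap between groups was several times the spread within them. For RFC4 the log2 fold change and its SE came to -0.55 ± 0.053 at an edgeR adjusted p of 2.47e-07. RFC1 (chromosome 4, 39287456 to 39366375) counted 6225, 6635 and 6497 in WT and 7593, 8418 and 7106 in Delta-TRRAP after normalization. RFC1 went the other way in all 3 libraries, most in Delta-TRRAP replicate 2. RFC1 rose by 0.26 ± 0.061 in log2 units (SE, edgeR adjusted p 0.00169). RFC1 is the large subunit that the canonical loader alone has, while RFC2 to RFC5 are shared with the other loaders. Without WT replicate 1 its adjusted p was 0.0108 at 0.22. RFC2 (chromosome 7, 74231499 to 74254458) had normalized counts of 5329.7, 5655 and 5338 in the WT libraries and 4675, 4420.0 and 4824 in the Delta-TRRAP libraries. The groups were close but did not overlap. For RFC2 the log2 fold change and its SE came to -0.23 ± 0.052 at an edgeR adjusted p of 0.00115. The RFC2 call was lost with upper quartile and library size scaling (adjusted p 0.0503 and 0.116) and without WT replicate 2 (0.0102). RFC3 and RFC5 fell by 0.46 and 0.36. Within each library RFC1 per kilobase stood at 0.562 to 0.582 times the mean of RFC2 to RFC5 in WT against 0.788 to 0.993 times in Delta-TRRAP.

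Replication protein A coats single-stranded DNA, and its 3 genes fell, RPA2 not beyond the threshold with upper quartile and library size scaling (adjusted p 0.0154 and 0.0475). For all tested genes averaging 1000 or more normalized counts the lower share was 45.9%. RPA3 (chromosome 7, 7636518 to 7718607) measured 4173, 3856 and 3452 normalized counts in WT and 2292, 2054 and 2287 in Delta-TRRAP. WT libraries varied more for RPA3 than for most of the set, but even the lowest of them lay far above the highest Delta-TRRAP library. RPA3 fell by 0.79 ± 0.068 in log2 units (SE, edgeR adjusted p 6.46e-08). RPA2 (chromosome 1, 27891524 to 27914746) counted 6491, 6940.3 and 6628 in WT and 5763, 5534 and 5565 in Delta-TRRAP after normalization. Groups stayed apart here too. For RPA2 the log2 fold change and its SE came to -0.25 ± 0.05 at an edgeR adjusted p of 0.000373. RPA1, the large subunit, fell by 0.32. RPA3, the smallest subunit, stood at 0.467 to 0.582 times the mean of RPA1 and RPA2 per kilobase in WT against 0.335 to 0.377 times in Delta-TRRAP.

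Of the pair that completes Okazaki fragments, the ligase fell and the flap endonuclease did not pass. LIG1 (chromosome 19, 48115445 to 48170603) had normalized counts of 3384, 3426 and 3503 in the WT libraries and 2105, 2157 and 2066 in the Delta-TRRAP libraries. The groups were separate and each was narrow. LIG1 fell by 0.70 ± 0.048 in log2 units (SE, edgeR adjusted p 4.74e-09). FEN1 (chromosome 11, 61792911 to 61797238) measured 7925, 8008 and 7809 normalized counts in WT and 7070.2, 6885 and 7551 in Delta-TRRAP. FEN1 was lower without overlap, with Delta-TRRAP replicate 3 closest to WT. FEN1 did not pass, at -0.14 ± 0.051 in log2 units (SE, edgeR adjusted p 0.0222). FEN1 passed with DESeq2 (adjusted p 0.00904), without the filter (0.00711) and without Delta-TRRAP replicate 3 (0.00354). Per kilobase LIG1 stood at 0.0827 to 0.0869 times FEN1 in WT against 0.053 to 0.0607 times in Delta-TRRAP.

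Genes of nucleotide supply moved in both directions, with 2 of 4 lower, 1 higher and a median log2 fold change of -0.091. That is near all tested genes averaging 1000 or more normalized counts, at 45.9% lower, 22.1% higher and a median of -0.14. Ribonucleotide reductase, which makes deoxynucleotides, has a large subunit RRM1 and a small subunit RRM2. RRM1 (chromosome 11, 4094707 to 4138932) counted 11963, 12712 and 12849 in WT and 13384, 13870.3 and 14243 in Delta-TRRAP after normalization. RRM1 libraries of Delta-TRRAP all lay above those of WT. RRM1 did not pass, at 0.15 ± 0.051 in log2 units (SE, edgeR adjusted p 0.0206). It was called higher with upper quartile scaling (0.25, adjusted p 0.000604), library size scaling (0.28, adjusted p 0.000156) and a minimum mean of 50 normalized counts (0.22, adjusted p 0.0016). RRM2, at 12293 to 13149.6 in WT against 9759 to 10713 in Delta-TRRAP, fell by 0.33. The RRM2 to RRM1 ratio per kilobase was 0.471 to 0.478 in WT against 0.337 to 0.348 in Delta-TRRAP libraries.

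Thymidylate is made by TYMS or salvaged by TK1. TYMS (chromosome 18, 657653 to 673578) had normalized counts of 15516, 16383 and 15605 in the WT libraries and 12075, 11821 and 12968 in the Delta-TRRAP libraries. TYMS was lower in each Delta-TRRAP library. For TYMS the log2 fold change and its SE came to -0.37 ± 0.053 at an edgeR adjusted p of 1.78e-05. TK1 (chromosome 17, 78174091 to 78187233) measured 3422, 3284 and 3350.5 normalized counts in WT and 3995, 3747 and 3805 in Delta-TRRAP. TK1 was higher in each. TK1 rose by 0.20 ± 0.049 in log2 units (SE, edgeR adjusted p 0.00219). Without WT replicate 2, WT replicate 3 or Delta-TRRAP replicate 1 the TK1 adjusted p was 0.0243, 0.0107 and 0.022. TYMS per kilobase stood at 3.46 to 3.8 times TK1 in WT against 2.3 to 2.6 times in Delta-TRRAP.

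The chromatin assembly genes CHAF1A and CHAF1B, whose products load histones behind the fork, did not pass. CHAF1A (chromosome 19, 4402640 to 4445018) counted 4096, 4323 and 4398 in WT and 4150.0, 4242 and 4016 in Delta-TRRAP after normalization. CHAF1B (chromosome 21, 36385392 to 36419015) had normalized counts of 3435, 3640.4 and 3680.1 in the WT libraries and 3497, 3528 and 3606 in the Delta-TRRAP libraries. Both genes overlapped between groups. CHAF1A did not pass, at -0.047 ± 0.05 in log2 units (SE, edgeR adjusted p 0.427). CHAF1B did not pass, at -0.017 ± 0.049 in log2 units (SE, edgeR adjusted p 0.776). Both turned positive under scaling by upper quartile and by library size, at 0.054 and 0.086 for CHAF1A and at 0.084 and 0.12 for CHAF1B.

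The ratios between genes given above compare transcripts within a library, where the scaling cancels. Their absolute size depends on the merged exon lengths and is not a measure of relative transcript number. They were chosen after the values were seen and have no test. For all 11 ratios WT and Delta-TRRAP libraries stayed apart.

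**Figure D4:**
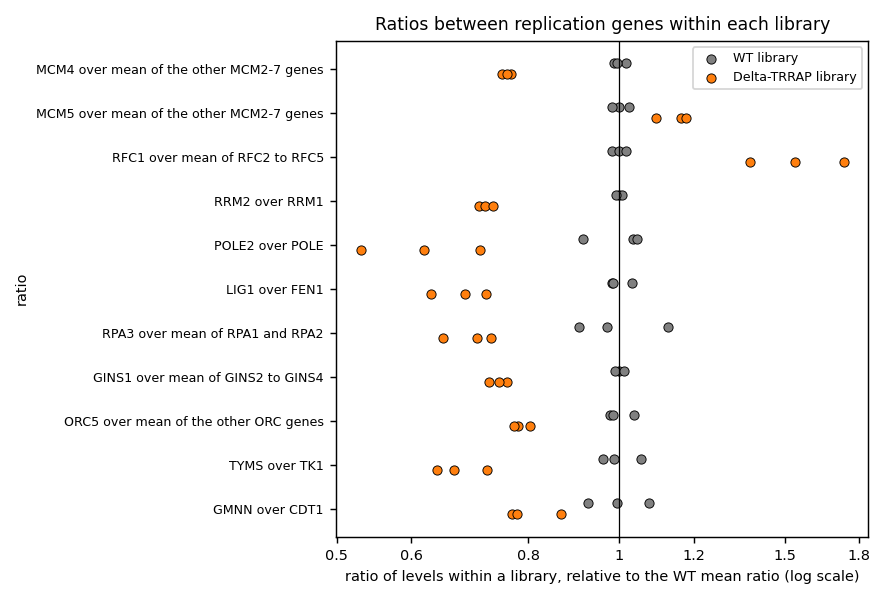
Ratio of levels per kilobase between replication genes within each library, divided by the mean WT ratio (horizontal axis, log scale), for 11 ratios. Grey points are WT and orange points Delta-TRRAP libraries. RFC1 over RFC2 to RFC5 moved up most, to 1.55 times the WT mean, and POLE2 over POLE moved down most, to 0.622 times.

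Counting could lower some values. Pseudogenes named after the gene were annotated for 11 of the 51 genes (ORC1, DBF4, POLD2, PCNA, RFC3, RFC5, RPA2, RPA3, FEN1, RRM2 and TYMS), and uniquely mapping reads were counted. Of these 11 genes 8 were lower, against 62.7% of the 51 genes and 27.6% of all tested genes. Over 5% of the main transcript was shared with a gene on the same strand for 4 genes, namely MCM8, POLA2, PRIM1 and POLD1.

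Chromosome position was the second property that the choice of genes did not use. For each gene the median log2 fold change of tested neighbours within 5 Mb was taken, leaving out other replication genes of the set and neighbours averaging under 100 normalized counts, which left 11 to 182 neighbours. The median over the 51 neighbourhoods was -0.065. Of the 51 genes, 35 lay below their neighbours and 16 above, with a median difference of -0.13. In 6 neighbourhoods the median was -0.3 or less, namely those of POLA1 (-0.31), POLD1 (-0.37), POLE2 (-0.31), RFC3 (-0.42), RFC5 (-0.64) and LIG1 (-0.32), and all 6 genes were lower, with a median of -0.48. The difference from the neighbours was 0.28 for RFC5, -0.041 for RFC3, -0.48 for POLE2 and -0.38 for LIG1. Of the other 45 genes 26 were lower, with a median of -0.22. GMNN alone had neighbours at 0.3 or more (0.39), from which it differed by -0.63. RPA3, MCM4, RFC4 and POLD3 had neighbours at 0.019, -0.056, 0.13 and 0.16. The part of chromosome position in these results was not tested.

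**Figure D5:**
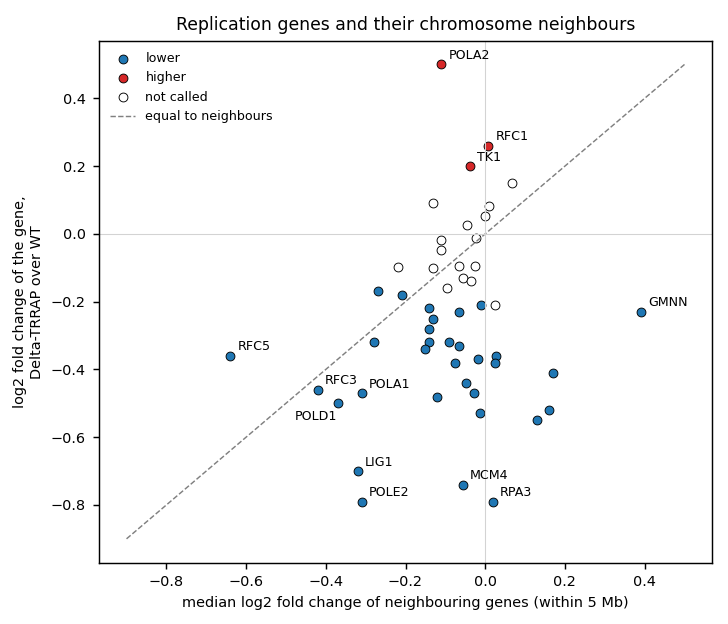
Log2 fold change of each replication gene (vertical axis) against the median log2 fold change of its neighbours within 5 Mb (horizontal axis), coloured by call. On the dashed line gene and neighbours are equal. RPA3 and MCM4 lie far below neighbours near 0, and RFC5, RFC3, POLD1, POLA1, LIG1 and POLE2 have lowered neighbours.

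The rest of the replication pathway was read from 66 further genes, all tested. Of these 45 (68.2%) were lower, 2 higher and 19 not called, with a median log2 fold change of -0.35, and 3 fell by a fold change of 2 or more. The share of lower genes was 27.6% over all tested genes and 45.9% over those averaging at least 1000 normalized counts. Among 12 genes of origin firing 8 fell and 0 rose, led by CCNE1, a cyclin of S phase entry, which went from 2267 ± 40.1 to 974 ± 19.7 (SD, n = 3 each) and so fell by 1.22 in log2 units. Fork protection and checkpoint genes fell in 9 of 14 cases, with RAD1, part of the checkpoint clamp, at -0.58 ± 0.054 as the largest fall. In the group of fork enzymes and accessory subunits 9 of 15 fell and 1 rose. The largest fall there, RTEL1 at -1.58 ± 0.35, and the rise, POLD4 at 0.57 ± 0.15, had few counts, with WT means of 25.3 and 52 normalized counts, and 95.2% and 38.4% of their main transcripts are shared with another gene on the same strand in GENCODE 44. Nucleotide metabolism had 8 falls and 1 rise among 11 genes, from -0.67 ± 0.056 for DTYMK, the thymidylate kinase, to 0.82 ± 0.092 for the mitochondrial thymidine kinase TK2. Behind the fork, 11 of 14 chromatin genes fell and 0 rose, with UHRF1, which brings DNMT1 to newly made DNA, going from 3437 ± 144 to 1399 ± 41.5 (SD, n = 3 each), where it fell by 1.30 in log2 units.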

How the data were processed

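Poly(A) RNA of 6 K562 libraries (3 WT, 3 Delta-TRRAP, grouped by title) was sequenced by the authors. The deposited counts are reads per gene, not normalized. STAR alignments to hg38, limited to reads with a unique position, were counted by the authors with HTSeq 2.0.2, reverse-stranded in union mode, on GENCODE 32. Reads with several map positions or in exons of overlapping genes on one strand were thereby lost. The table of normalized signal, which had 3 per-sample columns of another condition, and the authors' DESeq2 comparison (fold changes and p-values) were not used.

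Genes averaging at least 5 normalized counts were tested with the quasi-likelihood F test of edgeR 4.0.16 (R 4.3.3), with TMM scaling and group as the only term, and called at a Benjamini-Hochberg adjusted p of 0.01. The scaling was taken over the genes that passed the filter, so a change of filter also changed the scaling. A normalized count is the count over the TMM library size, scaled to the geometric mean of the 6 sizes. Errors are SD over 3 libraries or SE of the fit. DESeq2 1.42.0 and limma-voom (limma 3.58.1), other scalings, filters, thresholds, a replicate block and left-out libraries were alternatives. Each tool was also run on simulated counts in which few genes changed, which does not probe the choice of scaling. Exon lengths (all annotated exons of a gene merged), overlaps and positions came from GENCODE 44, and promoter windows from RefSeq.

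In each role, values in every library are given for the genes with the largest and the smallest absolute log2 fold change and for every rise. In other lists the largest fall and the largest rise are named, and other names were chosen after their values were seen. The genes and lists were chosen with earlier results of these data known. A gene of the wider pathway is not reported here and was left out of its list's counts. Same-numbered replicates did not deviate together (correlations of 0.0867, -0.084 and -0.192 over 11459 genes), so the numbers were not taken to pair libraries.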

Additional observations from a re-analysis of the deposited data

How the results depend on the processing

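Over 14 alternatives of scaling, tool, filter, block and left-out library, the count of lower replication genes stayed between 24 and 35, and their median log2 fold change stayed negative. The 8 lower genes that lost their call in any of them had log2 fold changes of -0.28 to -0.17. Every library held at least 35076835 counts, and POLA2 averaged 278 normalized counts against at least 930.1 for each other member. Rises numbered 5 with upper quartile scaling, 7 with library size scaling, 5 with a minimum mean normalized count of 50 and 1 at an adjusted p of 0.001, against 3. The median of the 51 genes was -0.15, -0.12 and -0.18 under the first 3 of these and -0.27 without a filter. With each library left out in turn, the median was -0.28 to -0.24, lower genes numbered 28 to 33, higher genes 2 to 3, and genes at a fold change of 2 numbered 0. A replicate block gave 30 lower and 3 higher genes and the same median of -0.25, with MCM5 (adjusted p 0.0115), MCM10 (0.0184) and ORC2 no longer called, MCM8 newly called (0.00903), and no other named gene changed in call.

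At a fold change of 1.5 in place of 2, 4 replication genes were lower, and all genes called numbered 6750, of which 2562 were lower. A minimum of 50 gave 1964 genes at a fold change of 2, 673 lower and 1291 higher, against 4322, 1162 and 3160. With this minimum fewer genes were tested, and the scaling was taken from those genes alone. Neighbours with a mean of at least 1000 had a median of -0.13. Among the 25 genes given in full, signs turned for 4 that had not passed, and the cause was not tested: GINS2 (0.088 with upper quartile, 0.12 with library size, 0.059 with the minimum of 50, and -0.054 to 0.015 with each library left out in turn), POLE (0.0057 and 0.038 with the first 2 scalings), CHAF1A (0.054, 0.086 and 0.026 with the first 3) and CHAF1B (0.084, 0.12 and 0.056). Among the other genes, CDC7, ORC1 and POLD2, not called and below 0, turned positive with upper quartile and library size scaling, and GINS3, not called and above 0, turned negative without WT replicate 1 or Delta-TRRAP replicate 3. Of 425 refits of the 25 genes given in full, 361 kept their call and sign, 35 lost a call, 16 gained one and 13 turned sign.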

Other observations

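The E2F family and its pocket protein partners, known regulators of many replication genes, were read from 16 genes. Of these 11 were lower and 2 higher by edgeR at an adjusted p of 0.01, with a median log2 fold change of -0.38. Over all tested genes 27.6% were lower and 30.7% higher. Among those averaging at least 1000 normalized counts the shares were 45.9% and 22.1%. MYBL2, a factor of the complex that drives G2 genes, fell most, from 7378, 7764 and 7696 normalized counts in WT to 4631, 4802 and 4497 in Delta-TRRAP, at -0.71 ± 0.05 (SE). The activator gene E2F2 rose from 1044, 1037 and 1070.4 to 1317, 1234 and 1262, by 0.28 ± 0.053 (SE), and RBL2, a pocket protein of resting cells, rose by 0.24 ± 0.055 (SE). E2F1, a main activator of S phase genes, fell by 0.36 ± 0.067 (SE), while E2F3 and RB1 differed by 0.018 ± 0.049 and 0.027 ± 0.05 (SE) and did not pass.

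Among 16 genes of G2 and mitosis the largest fall was CDC20, an activator of the anaphase-promoting complex, from 5929, 5996 and 6240.0 normalized counts in WT to 3462, 3276 and 3209 in Delta-TRRAP, at -0.87 ± 0.051 (SE). CDK1, the mitotic kinase, fell by 0.67 ± 0.062 (SE). MKI67, a marker of dividing cells, had 10271, 11447 and 12617 in WT and 10379, 14245 and 7629 in Delta-TRRAP, so that the Delta-TRRAP libraries spread over and beyond the WT range and the gene did not pass at -0.09 ± 0.15 (SE).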
